A study of Homo sapiens with 12 samples.

Results

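The 10 genes described here encode proteins of the contractile actin filament and its regulators: the muscle actins ACTA1, ACTA2, ACTC1 and ACTG2, the actin-binding proteins TAGLN and CNN1, the myosin light chains MYL9 and MYL7, and the tropomyosins TPM1 and TPM2. They were chosen by name and function, with earlier results of these data known. All 10 were found among the 57820 genes of the expression tables. Expression was measured by sequencing polyadenylated RNA from G401, a line of human rhabdoid tumour cells whose labelled genotype is SMARCB1(-/-). Doxycycline induced either green fluorescent protein (GFP), as the control protein, or SMARCB1. For 24 hours the cells then received dBRD9-A, a compound that brings about degradation of the BRD9 protein, or its solvent DMSO alone. The 4 groups were therefore DMSO-treated GFP cells, GFP cells with dBRD9-A, DMSO-treated SMARCB1 cells and SMARCB1 cells with dBRD9-A, with 3 libraries each. All groups shared the cell line, its SMARCB1 loss and a doxycycline-induced transgene, and the length of the induction was not given in the sources used here. All libraries came from this single cell line, and no label said whether replicates were separate cultures, so p-values measured only the spread between these libraries.

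SMARCB1 is a core subunit of the canonical SWI/SNF chromatin remodelling complexes, and BRD9 is a subunit of a non-canonical form of SWI/SNF that lacks SMARCB1. In muscle, actin filaments slide along myosin, and tropomyosin lies along the filament and controls access of myosin to it. In smooth muscle, transgelin and calponin bind the filament, and phosphorylation of the regulatory myosin light chain starts contraction. Many genes of this set carry CArG boxes, the binding sites of serum response factor (SRF), whose coactivators of the myocardin family (MYOCD, MRTFA and MRTFB) drive contractile genes.

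Promoter sequence was available in RefSeq (build GRCh38.p14) for 8 of the 10 genes; TAGLN and MYL9 were not in that table. Each promoter ran from 250 bases before to 50 bases after an annotated start. The CArG box was searched as CC, 6 bases that are each A or T, and GG, which reads as the same pattern on both strands. It was present in the promoters of 4 of the genes, ACTA1, ACTC1, ACTG2 and MYL7, against 454 of 35116 promoters of the same length in the table (1.29%). Here and below a gene counted if any of its promoters matched, and ACTA2, ACTC1 and TPM2 had more than 1. The shares over the table are per promoter, so the values are not on the same basis. The 150 bases before the start are shown for these 4 genes and for ACTA2, because the muscle actins and MYL7 had the lowest levels of the set and ranged from the largest rise with SMARCB1 to no detectable transcript. Capitals mark the CArG box, 5′ to 3′ on the gene's own strand.
MYL7: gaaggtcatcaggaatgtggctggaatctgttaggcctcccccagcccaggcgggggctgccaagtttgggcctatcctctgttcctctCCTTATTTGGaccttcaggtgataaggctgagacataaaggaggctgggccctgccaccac
ACTG2: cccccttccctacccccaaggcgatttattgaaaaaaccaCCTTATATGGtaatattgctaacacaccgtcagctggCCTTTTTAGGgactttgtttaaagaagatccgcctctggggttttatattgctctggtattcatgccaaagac
ACTA1: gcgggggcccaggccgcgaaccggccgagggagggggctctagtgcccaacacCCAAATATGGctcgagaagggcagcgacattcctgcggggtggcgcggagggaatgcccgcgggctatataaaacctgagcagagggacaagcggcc
ACTC1: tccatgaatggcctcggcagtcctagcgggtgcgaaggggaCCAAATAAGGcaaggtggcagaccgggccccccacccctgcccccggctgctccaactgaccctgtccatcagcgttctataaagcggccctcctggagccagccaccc
ACTA2: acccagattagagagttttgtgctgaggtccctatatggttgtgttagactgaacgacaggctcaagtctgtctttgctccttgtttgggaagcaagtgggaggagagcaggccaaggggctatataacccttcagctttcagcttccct
The stretches lie at chr7:44141333-44141482 (minus strand) for MYL7, chr2:73892858-73893007 (plus strand) for ACTG2 and chr1:229434095-229434244 (minus strand) for ACTA1. Those of ACTC1 and ACTA2 lie at chr15:34795550-34795699 and chr10:88952774-88952923, both on the minus strand, and ACTC1 is shown at the start site nearest its CArG box of the 3 that RefSeq listed. The first base of the box lay 61 bases before the start in MYL7, 97 in ACTA1 and 109 in ACTC1. ACTG2 had a pair of boxes, 110 and 73 bases before its start. The promoters of ACTA2, CNN1, TPM1 and TPM2 held no exact match. In the ACTA2 stretch, ccctatatgg and ccttgtttgg each differ from the searched pattern at 1 base. Near matches were not searched for in any promoter, so the lack of an exact match does not show that a gene lacks CArG boxes. The letters TATAAA, the core of a TATA box, were searched on both strands and occurred in the promoters of ACTA1, ACTC1 and ACTG2, against 11.5% of all promoters. The letters CATTCC, the core bound by TEAD factors, occurred on either strand in ACTA1, ACTA2, ACTC1 and MYL7, against 14.0% of all promoters. The ACTC1 match lay at a start site other than the one shown. None of these matches overlapped another. A match describes letters only, and factor binding was not measured.

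Libraries held 34.97 to 58.54 megacounts assigned to genes (1 megacount is 1e+06 counts), and levels are given as counts per megacount (CPM). A count of 3, taken as the detection floor, corresponded to 0.0516 to 0.0847 CPM, and this floor covers counting error only. The label check held for the induced gene: SMARCB1 had 0 to 2 counts in the GFP libraries and averaged 1875 ± 59.4 CPM in DMSO-treated SMARCB1 cells and 1307 ± 27.0 CPM in SMARCB1 cells with dBRD9-A (SD, n = 3). BRD9 transcript did not pass the test for dBRD9-A in either cell state (adjusted p = 0.146 and 0.921), and the degrader acts on protein, which was not measured. Some muscle identity markers were at the floor or absent. MYOD1, MYOG, MYF5 and TNNI2 had 0 counts in all 12 libraries. MYH11 and MYOCD, defining genes of smooth muscle, were at or under 3 counts in every library. So were the cardiac genes NKX2-5, MYH6, MYL2 and NPPA. Others were expressed in DMSO-treated GFP cells, cardiac TNNT2 and TNNI3 at 15.65 and 9.55 CPM. DES, ACTN2, CKM and MYL3 had 8 to 41 counts per library there. With SMARCB1 in DMSO, DES and ACTN2 were called higher (log2 fold change 2.75 and 2.05). CKM (-2.02), TNNT2 (-0.24), TNNI3 (-0.82) and MYL3 (-2.50) were called lower. The summed level of the 6 smooth muscle markers was mostly SMTN. It ranged from 36.3 to 40.0 CPM in DMSO-treated GFP cells and from 41.8 to 42.6 CPM in DMSO-treated SMARCB1 cells. Of the 4 tested between these groups, 2 were called higher and 0 lower, against 33.5% and 31.6% of all genes. Their median log2 fold change was 1.42, against -0.005 over all genes. SYNPO2 rose by 2.76, from 4 to 7 counts to 23 to 37 counts, and DES was the other gene called. SMTN and LMOD1 were not called. The 4 immune markers were at or under 3 counts throughout, as were the fibroblast genes DCN and LUM. Other marker sums differed between these groups: the 7 skeletal muscle markers went from 0.80 to 1.03 CPM in DMSO-treated GFP cells to 2.85 to 3.27 CPM in DMSO-treated SMARCB1 cells, the 7 cardiac markers from 24.7 to 27.1 CPM to 18.0 to 19.7 CPM, the 6 fibroblast markers from 1172 to 1229 CPM to 909.1 to 923.7 CPM, and the 4 epithelial markers from 4697 to 5081 CPM to 3539 to 3638 CPM. The 3 matched endothelial markers went from 0.0173 to 0.121 CPM to 0.681 to 1.07 CPM, with KDR at or under 3 counts in both groups. Markers within some of these lists went both ways. Of 3 skeletal muscle markers tested 2 were called higher and 1 lower, and of 3 cardiac markers 0 and 3. Of 4 fibroblast markers tested 1 was called higher and 2 lower, and of 4 epithelial markers 1 and 3. The 1 endothelial marker tested was called higher. A sum is set mostly by the most abundant genes of its list. The part of these markers in the results below was not tested.

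Levels per kilobase of merged exons, the scale on which genes can be compared with each other, spanned a wide range. In DMSO-treated GFP cells the order was TPM1 at 129.7 ± 2.97 CPM per kilobase, TPM2 at 103.5 ± 3.61, TAGLN at 45.7 ± 2.75, MYL9 at 12.9 ± 1.60 and CNN1 at 7.30 ± 0.477 (SD, n = 3). ACTA2 followed at 0.236 ± 0.0885 CPM per kilobase. ACTA1 (0.0672 ± 0.0246), MYL7 (0.0660 ± 0.0703) and ACTG2 (0.0594 ± 0.0355) did not differ beyond their spread, and ACTC1 had no counts in this group. The non-muscle actins ACTB and ACTG1, which build the filaments of the general cytoskeleton, stood at 5003 ± 105 and 2852 ± 52.9 CPM in the same libraries, while the 4 muscle actins together had 23 to 36 counts per library. In DMSO-treated SMARCB1 cells, TAGLN reached 104.8 ± 1.75 CPM per kilobase, next to TPM2 at 102.1 ± 1.03. The small distance between TPM1 and TPM2 on this scale depends on merged exon lengths of 8347 and 1640 bases in GENCODE 29. TPM1 has many isoforms, and the data hold 1 value per gene. Before division by length, TPM1 was already above TPM2, at 1082 and 169.7 CPM in DMSO-treated GFP cells.

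**Figure D1:**
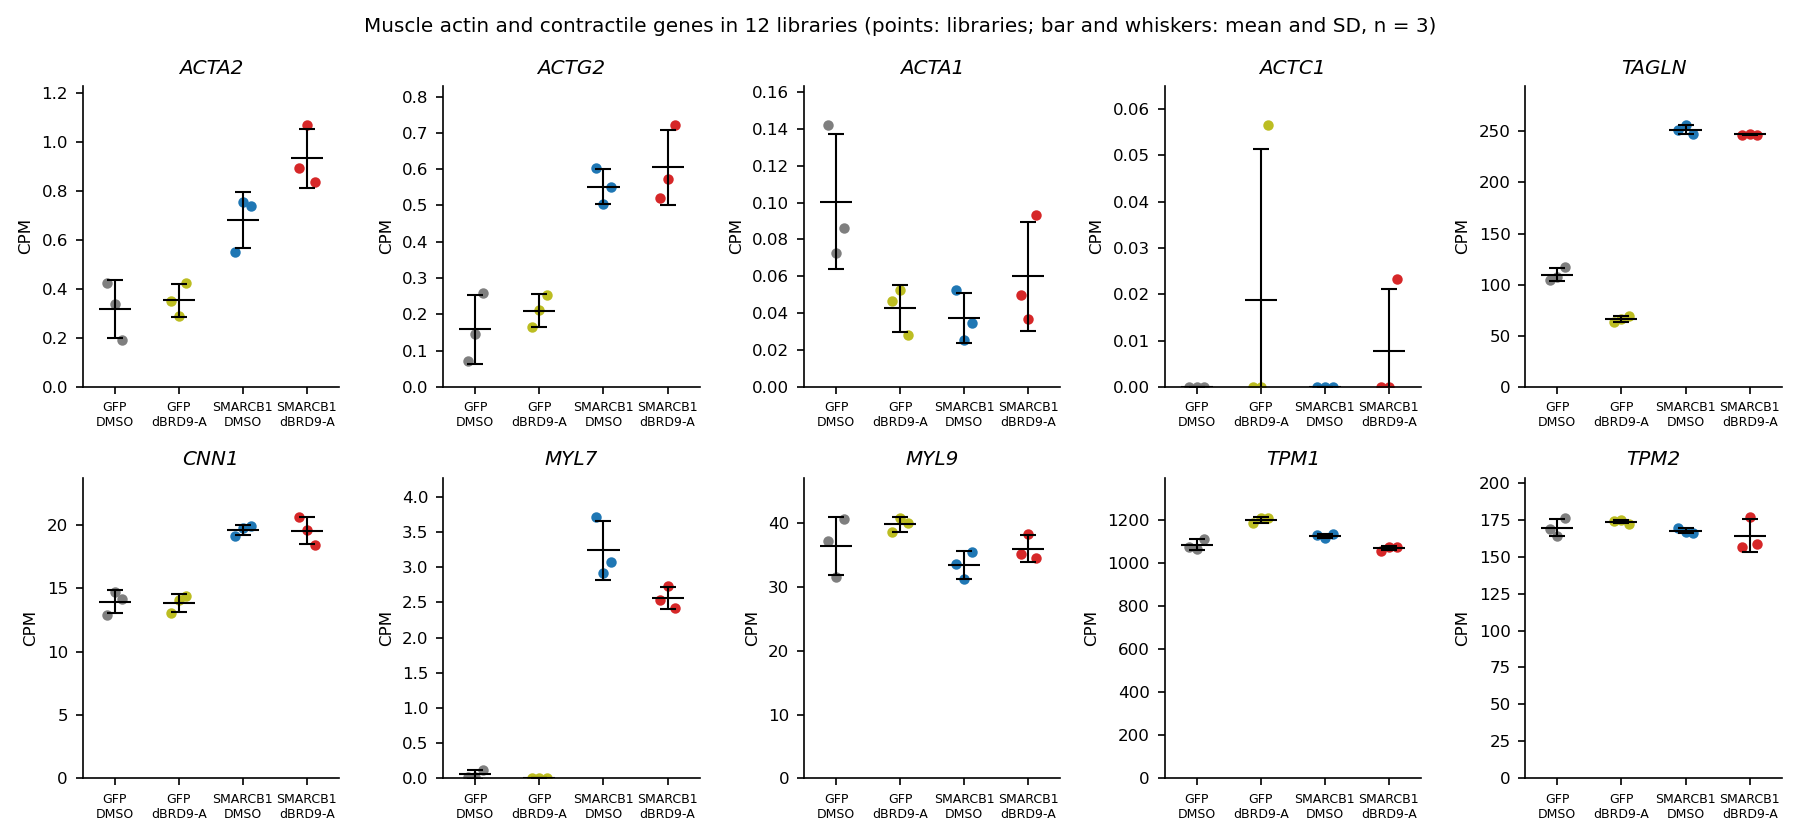
Level of each of the 10 genes, in CPM on a linear axis that starts at 0, in the 4 groups; each point is a library, and bars with whiskers give the mean and SD of 3 libraries. TAGLN, ACTA2, ACTG2, CNN1 and MYL7 lie higher in both SMARCB1 groups than in both GFP groups, TAGLN is also lower in GFP cells with dBRD9-A (mean 66.6 CPM) than in DMSO-treated GFP cells (109.8 CPM), and ACTA1 and ACTC1 stay at or near the floor.

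The first comparison asks how the genes differed when SMARCB1 was restored, in the absence of the degrader. TAGLN, MYL7, ACTA2, ACTG2 and CNN1 rose, CNN1 by 1.41-fold and TAGLN by 2.29-fold, while MYL7 had the largest log2 fold change of the 8 genes tested but was near the detection floor in GFP cells. TPM1 rose by 3.9%, a call lost in most fits with 1 library left out. MYL9 and TPM2 did not pass the test, and ACTA1 and ACTC1 were too low to be tested. Of the 8 genes that passed the filter on low counts, 6 were called at an adjusted p under 0.05, all 6 higher. Of all 15750 genes tested, 65.0% were called in this comparison, 33.5% higher and 31.6% lower. The median log2 fold change of the 8 was 0.81, against -0.005 over all genes tested. A fold limit of 1 on the log2 scale kept 4 of the 6 calls, MYL7, ACTG2, TAGLN and ACTA2. In bulk RNA, fewer cells expressing a gene and less RNA per cell cannot be told apart.

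Among the actins, ACTA2, the smooth muscle alpha actin (ENSG00000107796, chr10:88935074-88991339), had 24, 14 and 11 counts in DMSO-treated GFP cells and 21, 30 and 43 in DMSO-treated SMARCB1 cells. Scaled to depth these were 0.426, 0.339 and 0.190 CPM against 0.550, 0.756 and 0.740 CPM, so the groups did not overlap. The log2 fold change was 1.11 (standard error 0.29, adjusted p = 0.00237). ACTG2, the gamma actin of enteric smooth muscle (ENSG00000163017, chr2:73892314-73919865), had 4, 6 and 15 counts in DMSO-treated GFP cells and 23, 20 and 32 in DMSO-treated SMARCB1 cells. Its libraries also fell apart by group, at 0.0710 to 0.259 CPM against 0.504 to 0.602 CPM, with a log2 fold change of 1.76 (standard error 0.35, adjusted p = 0.000267). Without GFP DMSO replicate 3, which held 15 of the counts, the value was 2.38. ACTA1, the skeletal muscle alpha actin, had 8, 3 and 5 counts in DMSO-treated GFP cells and 2, 1 and 2 in DMSO-treated SMARCB1 cells, and when the filter was dropped its log2 fold change was -1.41 (standard error 0.87, adjusted p = 0.225). ACTC1, the cardiac alpha actin, had 0 counts in all 6 of these libraries. Both smooth muscle actins thus rose while the striated muscle actins were at or near the floor, where no difference was detectable at this depth.

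Fitted as a single feature, the summed counts of the 4 muscle actins rose by a log2 fold change of 1.14 (adjusted p = 2.21e-05). The coding sequences of these 4 genes were 84.6% to 85.9% identical to each other and 81.7% to 85.6% identical to ACTB and ACTG1. Windows of 50 bases were searched in protein-coding transcripts, in the GENCODE 29 basic set, of the other muscle actins, ACTB and ACTG1. Of 1442 windows in the ACTA1 transcript, 11 (0.763%) occurred there exactly, and no window of ACTA2, ACTC1 or ACTG2 did. Other actin-like genes and pseudogenes were not searched. All 120 values of the 10 genes in the expression tables were whole to within 0.005. This was also the common case over all genes: 1737 of the 15750 tested (11%) had a value that was not whole. ACTA2 also overlaps FAS, a death receptor gene on the opposite strand, which had 6 to 46 counts and rose by a log2 fold change of 1.78 (standard error 0.23, adjusted p = 2.52e-06). The library kit marks strand, but whether counting used it was not given in the sources used here, so the part of FAS reads in ACTA2 was not tested.

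TAGLN, or transgelin (SM22), an actin-bundling protein and early marker of smooth muscle (ENSG00000149591, chr11:117199321-117204782), had 105.0, 107.1 and 117.4 CPM in DMSO-treated GFP cells and 251.2, 256.0 and 247.6 CPM in DMSO-treated SMARCB1 cells. Every SMARCB1 library was over every GFP library by more than the range within either group. The log2 fold change was 1.20 (standard error 0.04, adjusted p = 8.9e-15), the smallest adjusted p of the 8 in this comparison. PCSK7, a proprotein convertase gene that overlaps TAGLN on the opposite strand, had 1317 to 2538 counts against 2452 to 14396 for TAGLN and had a log2 fold change of 0.10 (standard error 0.04, adjusted p = 0.033). That call was lost in the DESeq2 test (adjusted p = 0.0556), without the filter on low counts (adjusted p = 0.0904) and without any 1 of GFP DMSO replicates 1 and 3 and SMARCB1 DMSO replicates 2 and 3 (adjusted p up to 0.183). CNN1, basic calponin, which inhibits the actin-activated ATPase of myosin (ENSG00000130176, chr19:11538717-11550323), had 12.9, 14.7 and 14.2 CPM in DMSO-treated GFP cells and 19.2, 19.7 and 19.9 CPM in DMSO-treated SMARCB1 cells. These groups did not overlap either, and the log2 fold change was 0.50 (standard error 0.06, adjusted p = 6e-07). Both actin-binding genes rose, TAGLN by 2.29-fold and CNN1 by 1.41-fold.

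The light chains parted. MYL7, the regulatory light chain of the cardiac atrium (ENSG00000106631, chr7:44138864-44141332), had 1, 1 and 7 counts in DMSO-treated GFP cells and 142, 116 and 179 counts in DMSO-treated SMARCB1 cells. The log2 fold change was 5.74 (standard error 0.31, adjusted p = 1.44e-10), and it was 7.11 without GFP DMSO replicate 3, the library with 7 counts. The ratio of the summed counts, 437 against 9, scaled to depth, was 55.3 with an exact 95% interval of 28.9 to 122 that covers counting error only. MYL7 remained a low-abundance transcript, at 2.92 to 3.72 CPM in the SMARCB1 libraries. MYL9, the regulatory light chain of smooth muscle and non-muscle myosin (ENSG00000101335, chr20:36541484-36551447), had 37.2, 31.6 and 40.6 CPM in DMSO-treated GFP cells and 33.6, 31.2 and 35.5 CPM in DMSO-treated SMARCB1 cells. Its groups overlapped and it was not called (log2 fold change -0.13, standard error 0.07, adjusted p = 0.125), although it passed as lower without GFP DMSO replicate 2 (adjusted p = 0.00465) and without the filter on low counts (adjusted p = 0.00816).

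The tropomyosins, which per kilobase were the most abundant genes of the set in GFP cells, had small changes. TPM1 (ENSG00000140416, chr15:63042632-63071915) had 1074, 1063 and 1111 CPM in DMSO-treated GFP cells and 1127, 1115 and 1132 CPM in DMSO-treated SMARCB1 cells. The groups were close but did not overlap, with a log2 fold change of 0.06 (standard error 0.02, adjusted p = 0.0478). This call was lost in 10 of 12 fits with 1 library left out, with adjusted p from 0.0169 to 0.155, and in the fit of the compared groups alone (adjusted p = 0.0773). It was also lost with the replicate block (adjusted p = 0.0625) and without the filter on low counts (adjusted p = 0.265). TPM2 (ENSG00000198467, chr9:35681992-35690121) had 168.7, 164.3 and 176.1 CPM against 169.4, 166.8 and 166.3 CPM, and its log2 fold change was -0.02 (standard error 0.04, adjusted p = 0.686). With spike-in scaling TPM2 was called higher, at 0.15 (adjusted p = 0.043).

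**Figure D2:**
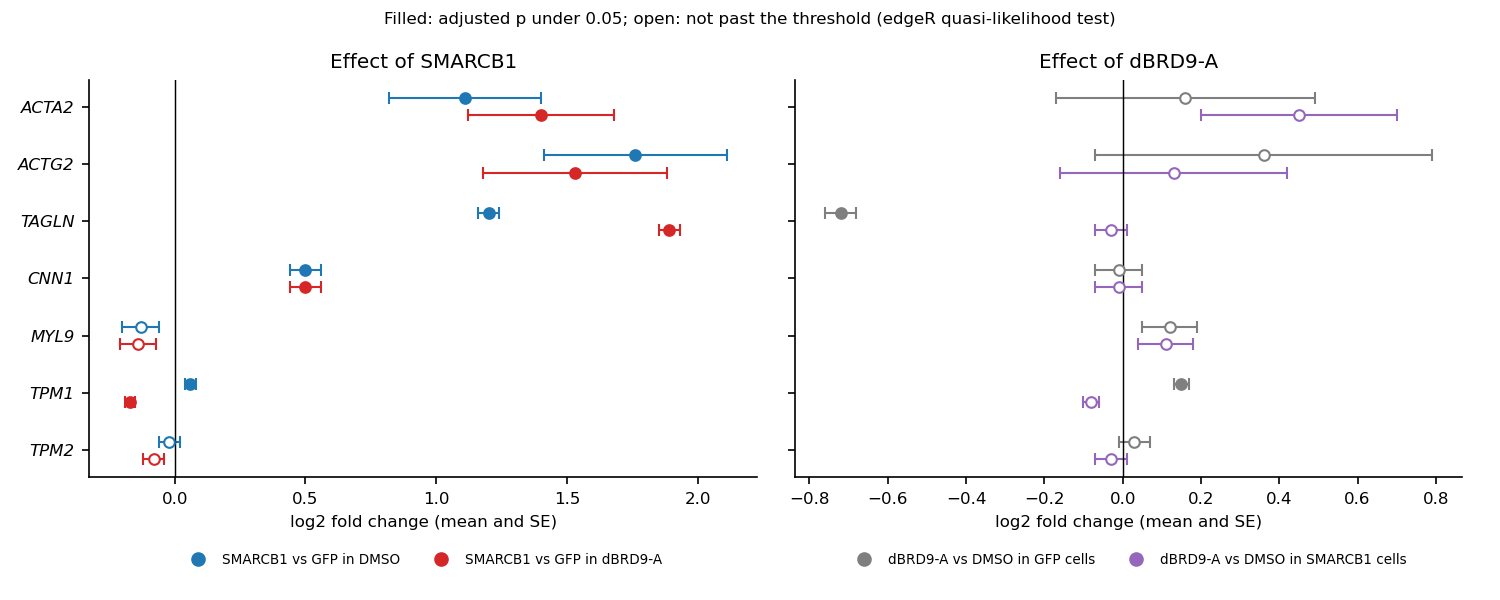
Log2 fold change with its standard error for 7 of the 8 tested genes, for SMARCB1 against GFP on the left and dBRD9-A against DMSO on the right; filled points have an adjusted p under 0.05. MYL7 is left out because its GFP libraries are at or near 0 counts. ACTA2, ACTG2, TAGLN and CNN1 are filled and to the right of 0 in both SMARCB1 comparisons, and on the right panel TAGLN in GFP cells stands alone at -0.72.

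The next comparison asks what BRD9 degradation did in cells without SMARCB1. In GFP cells TAGLN fell and TPM1 rose with dBRD9-A, while CNN1, MYL9, TPM2, ACTA2 and ACTG2 did not pass the test. Of the 8 tested genes 3 were called, 1 higher and 2 lower, the other being MYL7, whose counts were near 0. Of all genes tested, 15.9% were called in this comparison, 7.43% higher and 8.47% lower. The median log2 fold change of the 8 was 0.08, against 0 over all genes tested.

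TAGLN went from 105.0, 107.1 and 117.4 CPM in DMSO to 63.7, 66.7 and 69.3 CPM with dBRD9-A. It fell by 39.5% in GFP cells, with no overlap (log2 fold change -0.72, standard error 0.04, adjusted p = 8.22e-10), and the value ranged from -0.76 to -0.67 over the 12 fits that left out a library. Scaling libraries to the ERCC spike-ins, synthetic RNAs added to each sample, gave -0.36 (adjusted p = 1.77e-05), because that scaling moved the median of all genes by 0.36 on the log2 scale. TAGLN lay -0.72 from that median, and a fold limit of 1 on the log2 scale left MYL7 as the only gene of the set called. TPM1 went from 1074, 1063 and 1111 CPM to 1183, 1208 and 1206 CPM, again without overlap, a rise of 10.8% (log2 fold change 0.15, standard error 0.02, adjusted p = 0.000263). TPM1 and TAGLN thus moved in opposite directions in the same libraries. Marker sums that were also lower with dBRD9-A in GFP cells were those of the 6 fibroblast markers, at 891.8 to 902 CPM against 1172 to 1229 CPM in DMSO, with 3 of 4 tested called lower, and of the 7 cardiac markers, at 15.8 to 16.3 CPM against 24.7 to 27.1 CPM, with 1 of 3 tested called lower. In SMARCB1 cells, where TAGLN was not called, the fibroblast sum was lower with dBRD9-A too, at 737.3 to 794.3 CPM against 909.1 to 923.7 CPM. There 3 of 4 tested fibroblast markers were called lower, against 1.93% of all genes called in either direction. The part of these markers in the fall of TAGLN was not tested.

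MYL7 had 1, 1 and 7 counts in DMSO and 0 in each GFP library with dBRD9-A (adjusted p = 0.0489). Only 1 of these 6 libraries was above the floor of 3 counts, so no fold is given, and without it, GFP DMSO replicate 3, the adjusted p was 0.268. The call was also lost in 9 of the 12 left-out fits in all and with the replicate block (adjusted p = 0.0741). The remaining changes in GFP cells were a log2 fold change of 0.16 for ACTA2 (standard error 0.33, adjusted p = 0.808), 0.36 for ACTG2 (standard error 0.43, adjusted p = 0.644) and -0.01 for CNN1 (standard error 0.06, adjusted p = 0.953). The wide errors of the actins, which had 4 to 24 counts per library here, left changes of this size undetectable at this depth. MYL9 was at 38.6 to 40.9 CPM with dBRD9-A and TPM2 at 172.4 to 174.6 CPM, both within or overlapping the range in DMSO. With spike-in scaling CNN1, MYL9 and TPM2 were called higher as well, at 0.35, 0.49 and 0.39, each within 0.13 of the shifted median.

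In SMARCB1 cells the same treatment left the set with no call: 0 of 8 tested genes passed in edgeR, against 1.93% of all genes tested. At an unadjusted p under 0.05 the count was 1, TPM1, and DESeq2 called the same 1 gene. The median log2 fold change of the 8 was -0.02, against 0.003 over all genes. The induced SMARCB1 transcript was itself lower with dBRD9-A in these cells, by a log2 fold change of -0.52 (adjusted p = 4.95e-08), and its part in any of these values was not tested. TAGLN was at 251.2, 256.0 and 247.6 CPM in DMSO and 246.8, 247.6 and 246.8 CPM with dBRD9-A (log2 fold change -0.03, standard error 0.04, adjusted p = 0.844). The groups met at 247.6 CPM. TPM1 was at 1127, 1115 and 1132 CPM in DMSO and 1055, 1072 and 1073 CPM with dBRD9-A, a difference of -5.18% (log2 fold change -0.08, standard error 0.02) whose adjusted p was 0.127 in edgeR and 0.00541 in DESeq2. ACTA2 had a log2 fold change of 0.45 (standard error 0.25, adjusted p = 0.486) and MYL7 of -0.33 (standard error 0.17, adjusted p = 0.448).

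Whether dBRD9-A acted differently in the 2 cell states was tested by the interaction, the change in SMARCB1 cells minus the change in GFP cells. It was called for 2 of the 8 tested genes, TAGLN and TPM1, in opposite directions, against 3.80% of all genes tested. For TAGLN the interaction, in log2 units, was 0.70 (standard error 0.05, adjusted p = 5.16e-07): the fall in GFP cells was not seen in SMARCB1 cells. With spike-in scaling it was 0.20 (standard error 0.09, adjusted p = 0.0564) and missed the threshold, while the median of all genes moved to -0.49 and TAGLN lay 0.69 above it. For TPM1 the interaction was -0.22 (standard error 0.03, adjusted p = 0.000501), from a rise in GFP cells and a lower level, not called, in SMARCB1 cells, and it kept its sign and its call with every alternative run other than a fold limit of 1 on the log2 scale. MYL7 gave 4.13 (standard error 1.48, adjusted p = 0.167), with both GFP groups at or near 0. The interactions of ACTA2, ACTG2, CNN1, MYL9 and TPM2 lay between -0.23 and 0.29 and were not called. With spike-in scaling those of CNN1 (-0.49), MYL9 (-0.52) and TPM2 (-0.56) were called, close to the median of all genes under that scaling. The MYL7 interaction was called as well under that scaling, at 3.87 (standard error 1.55, adjusted p = 0.0251), far from that median.

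**Figure D3:**
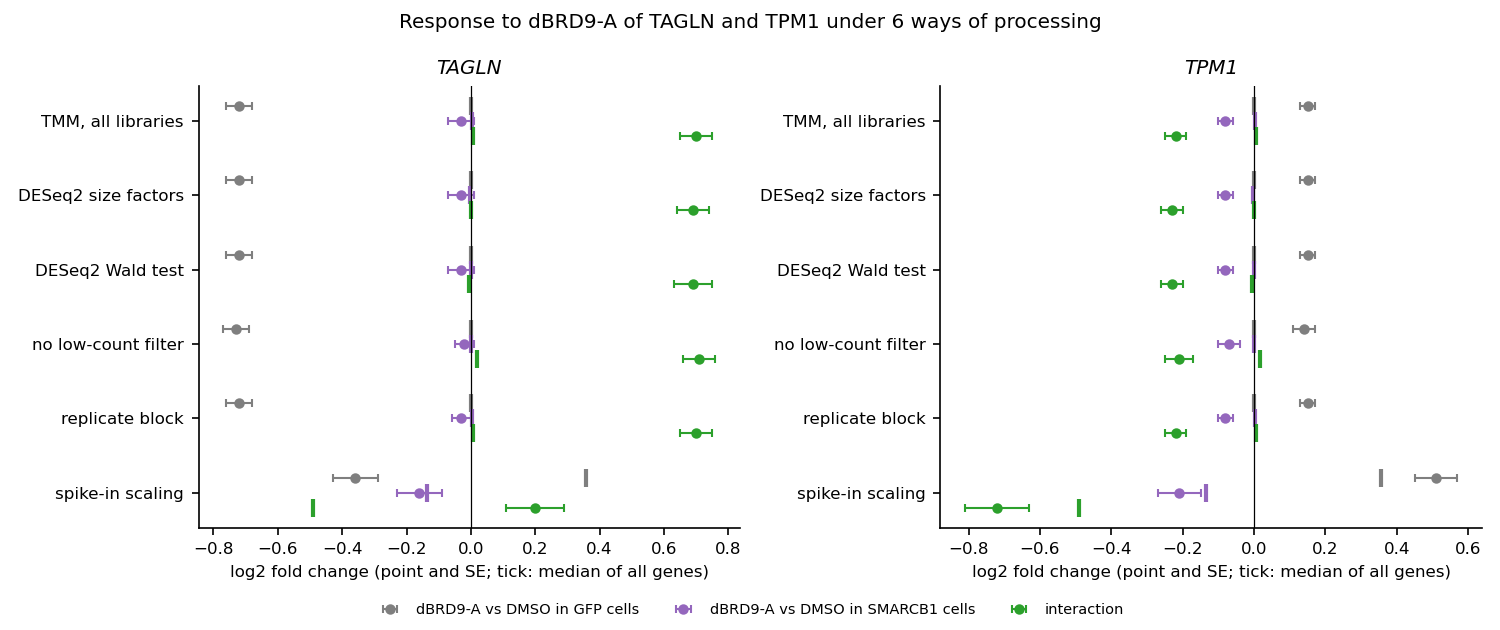
Change with dBRD9-A of TAGLN and TPM1 in GFP cells, in SMARCB1 cells and as the interaction, on the log2 scale with its standard error, for 6 ways of processing the counts; ticks mark the median of all genes in the same fit. The values hold their place relative to the ticks, and spike-in scaling moves points and ticks together, for TAGLN from -0.72 to -0.36 in GFP cells.

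The comparison of SMARCB1 with GFP cells that were both given dBRD9-A uses other libraries than the comparison in DMSO, but it shares the dBRD9-A libraries with the comparisons above, so the values are set side by side only. Of the 8 tested genes 6 were called, 5 higher and 1 lower, against 63.3% of all genes, 33.0% higher and 30.4% lower. The median log2 fold change of the 8 was 0.95, against 0.009 over all genes. TAGLN was at 63.7 to 69.3 CPM in GFP cells and 246.8 to 247.6 CPM in SMARCB1 cells, a 3.71-fold difference (log2 fold change 1.89, standard error 0.04, adjusted p = 2.94e-17) against 2.29-fold in DMSO. MYL7 had 0 counts in the GFP libraries and 102, 148 and 104 in the SMARCB1 libraries, and was at least 32.9-fold higher, taking 3 counts per library as the floor (adjusted p = 4.55e-10). The smooth muscle actins rose here as well, with log2 fold changes of 1.40 (standard error 0.28) for ACTA2 and 1.53 (standard error 0.35) for ACTG2, at adjusted p of 0.000315 and 0.00102. CNN1 rose by 0.50 (standard error 0.06, adjusted p = 8.99e-07), a call lost with spike-in scaling (0.17, adjusted p = 0.0708). TPM1 fell by 11.1%, from 1183 to 1208 CPM in GFP cells to 1055 to 1073 CPM in SMARCB1 cells (log2 fold change -0.17, standard error 0.02, adjusted p = 5.89e-06), the reverse of its direction in DMSO. MYL9 and TPM2 were not called (adjusted p = 0.0914 and 0.0826). Leaving out SMARCB1 dBRD9-A replicate 2 brought both past the threshold as lower, at -0.20 for MYL9 (adjusted p = 0.0345) and -0.14 for TPM2 (adjusted p = 0.000535). Leaving out GFP DMSO replicate 3 did so too (adjusted p = 0.04 and 0.0457), as did GFP DMSO replicate 2 for MYL9 (adjusted p = 0.0307). MYL9 also passed without the filter on low counts (adjusted p = 0.008) and in the fit of the compared groups alone (adjusted p = 0.0138), and with spike-in scaling both were called lower (-0.47 and -0.41).

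Close relatives of these genes in the same libraries show how each family was divided. TAGLN2, the transgelin of non-muscle cells, rose from 12.1 ± 1.01 to 68.1 ± 2.96 CPM with SMARCB1 in DMSO (log2 fold change 2.50, standard error 0.06, adjusted p = 2.63e-16), against 1.20 for TAGLN. It had a log2 fold change of 0.11 (standard error 0.07, adjusted p = 0.36) with dBRD9-A in GFP cells, where TAGLN fell. TPM4, a cytoskeletal tropomyosin, rose from 213.9 ± 3.61 to 424.4 ± 6.29 CPM (log2 fold change 0.99, standard error 0.03, adjusted p = 9.66e-16), and TPM3 rose by a log2 fold change of 0.30. The same comparison gave 0.06 for TPM1 and -0.02 for TPM2; these differences between genes were not tested. Among the calponins, CNN2 rose from 246.5 ± 9.05 to 315.8 ± 4.56 CPM, and CNN3 was at 301.7 ± 4.11 and 298.8 ± 3.56 CPM (SD, n = 3). TPM1 and TPM2 coding sequences were 68.2% identical and shared no window of 50 bases.

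**Figure D4:**
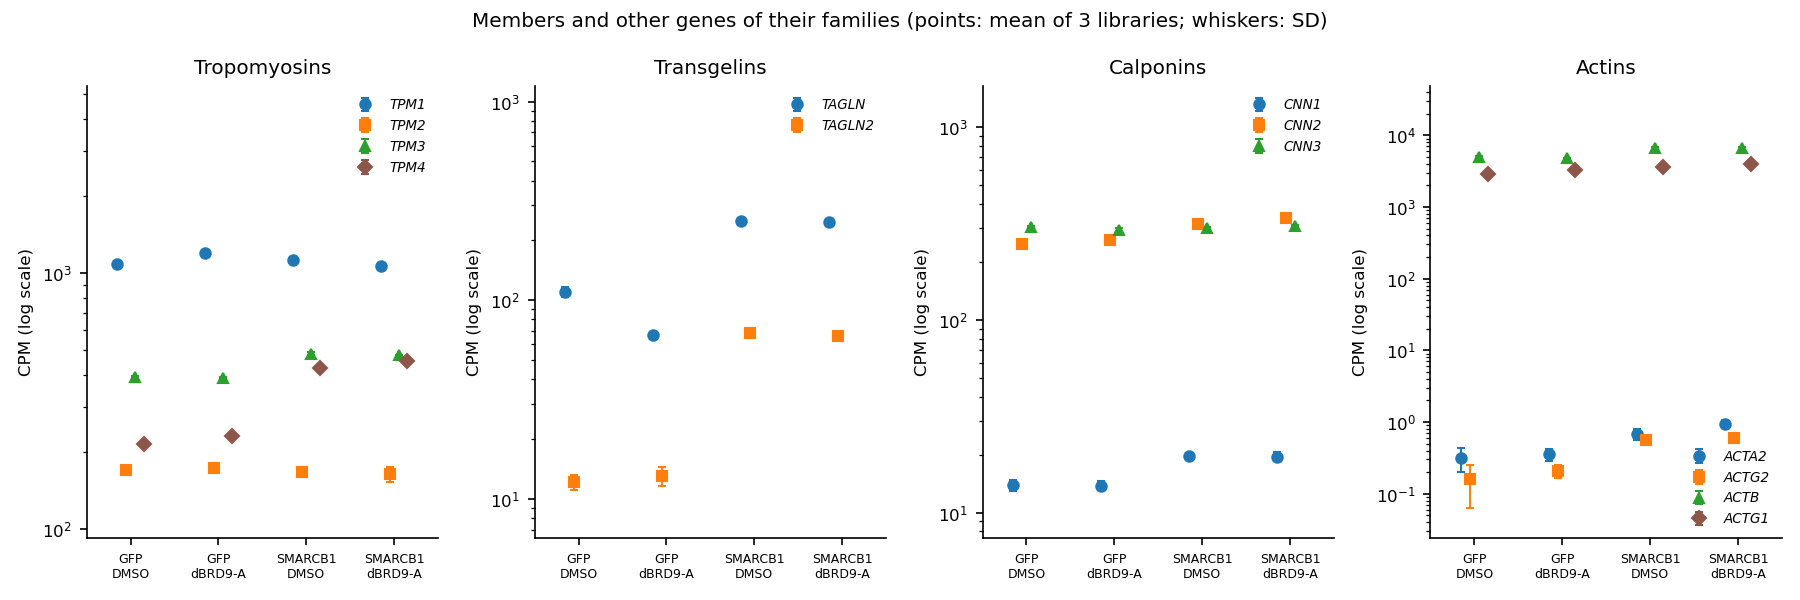
Mean level with SD over 3 libraries, in CPM on a log axis, of members and other genes of their families in the 4 groups. TPM4 and TAGLN2 rise with SMARCB1 as TAGLN does, TPM1 and TPM2 stay near their level, and levels are not adjusted for gene length, so they compare groups within a gene.

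The wider contractile apparatus was described from 3 lists. Of 30 cytoskeletal partners such as myosins, alpha-actinins and filamin, 28 were tested, and with SMARCB1 in DMSO 21 rose, 3 fell and 4 were not called, against 33.5% of all genes higher and 31.6% lower. Their median log2 fold change was 0.37, against -0.005 over all genes. ACTB and ACTG1 rose by 0.40 and 0.36. CALD1, caldesmon, another actin-binding inhibitor of contraction, fell from 4.97 ± 0.359 to 2.18 ± 0.0945 CPM (log2 fold change -1.19, standard error 0.11, adjusted p = 2.26e-08), opposite to CNN1. MYLK, the kinase of the regulatory light chains, had 0 to 1 counts in DMSO-treated GFP cells and 22 to 27 in DMSO-treated SMARCB1 cells. With dBRD9-A 4 of the 28 rose and 3 fell in GFP cells, where 7.43% of all genes were called higher and 8.47% lower. In SMARCB1 cells 2 rose and 1 fell, against 1.93% of all genes called in either direction.

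Of 31 sarcomere genes of skeletal and cardiac muscle, 30 were matched and 18 tested, and with SMARCB1 in DMSO 7 rose, 10 fell and 1 was not called, against 33.5% of all genes higher and 31.6% lower. Their median log2 fold change was -0.62, against -0.005 over all genes. The myosin heavy chains of skeletal muscle MYH8 and MYH2 were among those that rose, MYH8 from 0 counts to 1128 to 2103 counts (at least 533-fold higher) and MYH2 from 0.141 ± 0.103 to 24.1 ± 1.11 CPM (adjusted p = 9.85e-17). ACTN3, the alpha-actinin of fast skeletal fibres, fell from 6.68 ± 0.699 to 0.166 ± 0.0246 CPM (adjusted p = 1.17e-14). Cardiac MYL7 and MYL4 rose while MYL3, the ventricular light chain, fell by 2.50 on the log2 scale. TNNT2, cardiac troponin T, had a log2 fold change of -1.34 with dBRD9-A in GFP cells, and was the only gene of this list called there. Its interaction was 1.24 and was called, as for TAGLN.

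Of 23 regulators, 15 were tested, and with SMARCB1 in DMSO 8 rose, 3 fell and 4 were not called, against 65.0% of all genes called in either direction. Their median log2 fold change was 0.30, against -0.005 over all genes. SRF, which binds the CArG box, was at 50.4 ± 4.14 CPM in DMSO-treated GFP cells and 44.8 ± 2.60 CPM in DMSO-treated SMARCB1 cells (log2 fold change -0.17, adjusted p = 0.0112), a fall lost without GFP DMSO replicate 2 (adjusted p = 0.0813), without SMARCB1 DMSO replicate 3 (adjusted p = 0.0521) and with spike-in scaling, where it was 0.00 (adjusted p = 0.977). With dBRD9-A in GFP cells SRF rose by 0.19 (adjusted p = 0.0236), a call lost in 4 of the 12 left-out fits, while TAGLN fell. The SRF coactivators MRTFA and MRTFB rose with SMARCB1 by 0.30 and 0.60 (adjusted p = 8.4e-05 and 1.32e-07), and MYOCD had 0 to 2 counts. MEF2C, a factor of muscle development, fell from 34.2 ± 1.25 to 0.177 ± 0.0493 CPM (adjusted p = 1.81e-18). HAND1 and GATA6, factors of heart and mesoderm development, rose to 4.40 ± 0.138 and 10.4 ± 0.591 CPM, from 1 to 2 counts for HAND1 and 6 to 18 counts for GATA6. With dBRD9-A in SMARCB1 cells SRF had a log2 fold change of 0.20, with an adjusted p of 0.0844 in edgeR, 0.0459 in DESeq2, 0.031 without GFP DMSO replicate 2 and 0.00032 without the filter on low counts.

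Among 12719 other genes of at least 1 CPM, those whose 4 group means on the log2 scale lay closest to TPM1, each centred on its own mean, were KDM4C, WDR83, RDH13, TNFRSF25 and ACVR1B. Their root mean square differences from TPM1 were 0.003 to 0.0149, against a median of 0.15 over all candidates. This is a description over 4 group means.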

How the data were processed

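RNA from 12 G401 libraries was prepared with a stranded, poly(A)-selecting kit, per the labels' protocols. The deposited tables hold expected counts per gene, which the authors made with RSEM 1.3.1; STAR, DESeq2 and the builds GRCh37 and hg19 are also named, per the submitters' processing notes. The annotation version and the use of strand in counting are not given in the sources used here. ERCC spike-ins made up 0.9634% to 1.302% of a library and entered neither library sizes nor tests.

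Expected counts were rounded to whole numbers. Genes that passed filterByExpr (minimum count 10) were kept, 15750 in all, and scaled by TMM (factors 0.9765 to 1.016). edgeR 4.0.16 in R 4.3.3 fitted 1 coefficient per group by quasi-likelihood to all 12 libraries, and p-values were Benjamini-Hochberg adjusted over all genes tested, with 0.05 as the threshold. Standard errors come from the quasi-F statistic. Unless DESeq2 (1.42.0) is named, adjusted p values are from this edgeR test. CPM use TMM-scaled library sizes, and ± is the SD over 3 libraries. Libraries of the same group differed beyond sampling noise (chi-square per degree of freedom 2.91 to 25.3), and their rank correlations were 0.9967 to 0.9983. The statistics were tested on simulated data for SMARCB1 against GFP in DMSO, with 15500 genes fitted. Of 67, 67 and 66 genes changed 1.5-, 2- and 4-fold, 76.1%, 85.1% and 97% were called in the right direction. Among the unchanged genes 23 were called. In the measured libraries 65.0% of all genes tested were called for SMARCB1 against GFP in DMSO. How the statistics perform with so large a share of genes changed was not tested.

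Gene locations, exon lengths, overlaps and transcripts are from GENCODE 29 (GRCh38), which may differ from the authors' annotation, and no coordinate of the authors' build was used. Promoters are from RefSeq.

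The members and lists were chosen with earlier results of these data known. All 10 members, SRF, MYOCD, MRTFA and MRTFB, SMARCB1 and BRD9 were named whatever their values. From each other list the 3 genes with the largest absolute change for SMARCB1 in DMSO were named among those called, with a mean of at least 50 counts and replicates that did not overlap. ACTB, ACTG1, TPM3, CNN2, CNN3, MYLK, MYL4, MYL3, TNNT2, SMTN, FAS and PCSK7 were named after their values were seen. So were TNNI3, DES, ACTN2, CKM, SYNPO2 and LMOD1. Alternatives were DESeq2 size factors, spike-in scaling, the DESeq2 test, no filter on low counts, the compared groups alone, a replicate block, a fold limit, the summed actins and leaving out each library.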

Additional observations from a re-analysis of the deposited data

Results flagged for a closer look

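The change with dBRD9-A differed between GFP and SMARCB1 cells, by the test of the difference itself, for 2 of the 8 tested genes. For TAGLN the difference was 0.70 on the log2 scale (SE 0.05, edgeR adjusted p = 5.16e-07), from -0.72 in GFP cells and -0.03 in SMARCB1 cells. It ranged from 0.64 to 0.73 over the 12 fits that left out a library, but was 0.20 and no longer called with spike-in scaling (adjusted p = 0.0564). For TPM1 it was -0.22 (SE 0.03, edgeR adjusted p = 0.000501), from 0.15 in GFP cells and -0.08 in SMARCB1 cells, with a range of -0.25 to -0.21 over the left-out fits. The induced SMARCB1 transcript was also lower with dBRD9-A, at 1307 ± 27.0 against 1875 ± 59.4 CPM (SD, n = 3), and its part in either difference was not tested. Groups of 3 libraries were not tested for outlying samples.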

How the results depend on the processing

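Of 710 alternative values for single genes of the set, 664 kept their side of the threshold, 28 of which were uncalled values that changed sign. Of the others, 25 lost a call, 18 gained one and 3 reversed. Reversed means a change of sign where the main or the alternative fit was called. All 3 of the set were uncalled in the main fit. For the other named genes 1464 of 1507 kept their side, 31 of them with such a change of sign, while 17 lost a call, 19 gained one and 7 reversed. Spike-in scaling moved the median of all genes by 0.165 for SMARCB1 in DMSO, 0.357 and -0.135 for dBRD9-A in GFP and SMARCB1 cells, -0.319 for SMARCB1 with dBRD9-A and -0.491 for the interaction. Whether spike-ins were added per cell or per RNA mass was not given in the sources used here. With it, the genes called higher and lower were 6831 and 2581 (from 5271 and 4974), 11083 and 227 of 11310 (from 1170 and 1334), 39 and 834 of 873 (from 107 and 197), 2129 and 9046 (from 5191 and 4784) and 66 and 11204 of 11270 (from 338 and 260), in the same order. The members called became 6 for dBRD9-A in GFP cells, 1 in SMARCB1 cells (TPM1) and 5 for the interaction. Values that reversed with it were TPM2 for SMARCB1 in DMSO (0.15), CNN1, ACTN3 and PCSK7 for dBRD9-A in GFP cells (0.35, 0.31 and 0.29), MRTFA, BRD9 and PCSK7 for SMARCB1 with dBRD9-A (-0.08, -0.12 and -0.13), and the interactions of CNN1, SRF and PCSK7 (-0.49, -0.48 and -0.40). None of these values was called in both directions. DESeq2 called 1 member for dBRD9-A in SMARCB1 cells. A fold limit of 1 on the log2 scale left 2305, 143, 23, 2300 and 42 genes, with 1 member (MYL7) for dBRD9-A in GFP cells and 0 for the interaction. For dBRD9-A in SMARCB1 cells, 652 genes were called without the filter, 159 in the compared groups alone and 169 to 422 over the fits that left out a library, from 304; the lowest were 169 without SMARCB1 DMSO replicate 3, 174 without SMARCB1 DMSO replicate 2 and 196 without SMARCB1 dBRD9-A replicate 3. Causes of these shifts were not tested.

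No pairing of libraries by replicate number was detected. Same-numbered libraries of different groups had correlations of -0.056 to 0.061 over 18 pairs, and 3 of 12 libraries were nearest to their own number. These values do not show whether same-numbered libraries were handled together. With a replicate block the members called were 5, 2, 0, 6 and 2, and the genes called 10113, 2233, 254, 9812 and 529, for SMARCB1 in DMSO, dBRD9-A in GFP cells, dBRD9-A in SMARCB1 cells, SMARCB1 with dBRD9-A and the interaction. ACTA1, ACTA2, ACTC1, ACTG2 and, in GFP cells, MYL7 were limited by depth.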
